A study of Rattus norvegicus with 48 samples.

Results

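A set of 374 genes, of the 23481 Ensembl gene IDs in the count table, stood high together in 4 of the 48 rat fat libraries, 2 from each depot. The members were chosen by their values: a gene belonged when its level exceeded the depot's usual level by more than 2 on the log2 scale in all 4 libraries. The level was log2(CPM + 0.5), where CPM is a gene's count scaled to a common library total by the usual per-million factor, and the usual level was the median of the other 22 libraries of the same depot. This difference is called the excess below. The 4 libraries were subcutaneous (SAT) late exercise replicates 4 and 6, visceral (VAT) early exercise replicate 3 and VAT early control replicate 5. No member is described below by a gene name, because 0 of the IDs matched the rat gene tables used here. Which cell type or tissue the genes mark was therefore not tested, and neither was the labelled fat tissue checked against adipocyte markers.

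The study took both depots from 24 male rats, adolescent per the study's title, to ask how the timing of exercise bears on fat. Exercised and sedentary control rats were sampled on postnatal day 61, 24 h after the last exercise session, at zeitgeber time 13 (early active phase) or 23 (late active phase). This gave 4 groups of 6 rats per depot, namely late exercise, late control, early exercise and early control, and no genotype or agent other than exercise is named in the labels. All libraries came from polyA RNA of about the same weight of frozen tissue, and held between 13163675 and 17890033 counts, so that 3 counts, the limit a count of 0 allows, came to 0.228 CPM in the shallowest library. Adipose tissue is a mixture. Lipid-storing adipocytes lie among blood vessels, connective tissue, nerves and immune cells, lymph nodes are embedded in many depots, and subcutaneous fat borders on skin and muscle. A library made from a whole piece of tissue sums the RNA of all of these, so that more cells of a type and more RNA per cell cannot be told apart.

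The 374 members together held 22615 CPM in SAT late exercise replicate 4 and 41105 CPM in SAT late exercise replicate 6, against 1202 to 3051 CPM with a median of 1695 CPM in the other 22 SAT libraries. They held 14377 CPM in VAT early exercise replicate 3 and 10758 CPM in VAT early control replicate 5, against 776 to 1594 CPM with a median of 971 CPM in the other 22 VAT libraries. As shares of all counts these 4 sums were 4.11% and 2.26% in the SAT libraries, replicate 6 before replicate 4, and 1.44% and 1.08% in the VAT libraries, exercise before control. The sum was 13.3 and 24.2 times the depot's median in SAT replicates 4 and 6, and 14.8 and 11.1 times it in the VAT exercise and control libraries. The rule chose genes for these values, so the sums describe the set and test nothing. The 4 libraries belonged to 3 different groups, and their total counts, 15666820 to 16550286, lay within the range of the rest.

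**Figure D1:**
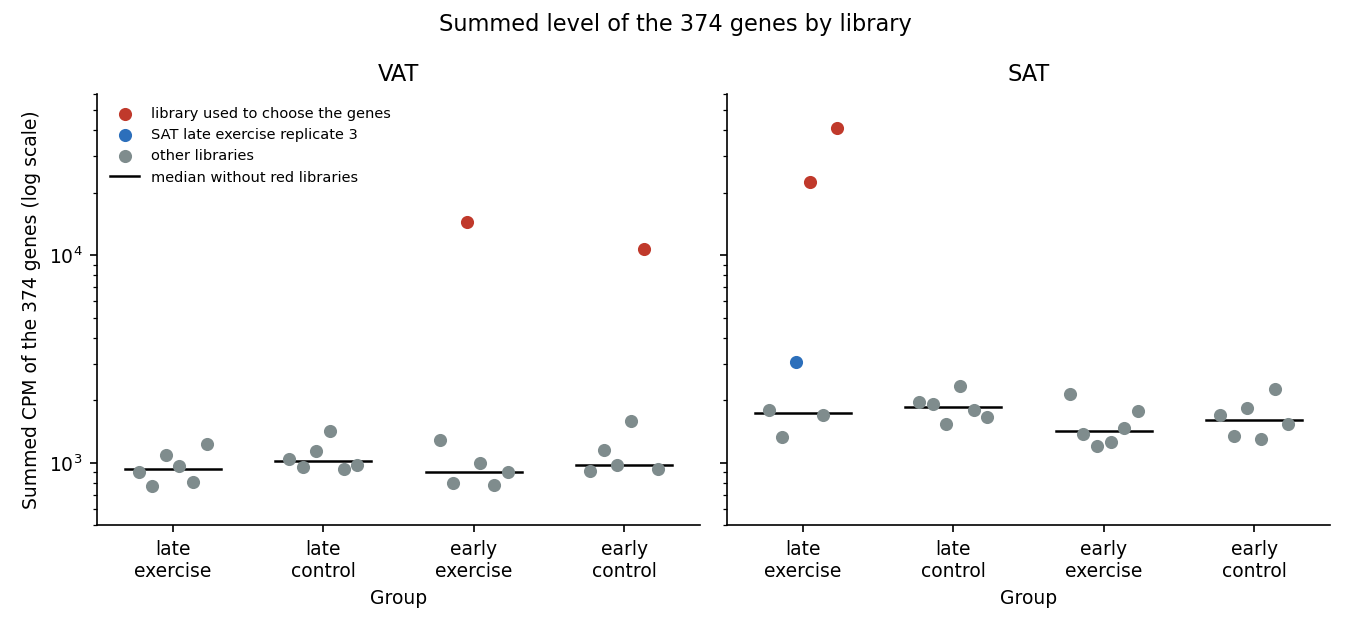
Summed level of the 374 genes in each library (vertical axis, CPM, log scale) by group, VAT and SAT in separate panels; each point is 1 library, red points are the 4 libraries that the rule used, the blue point is SAT late exercise replicate 3, and bars are medians without the red libraries. The red points lie between 10758 and 41105 CPM, and every other library lies at 3051 CPM or lower.

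The rule set every member's excess over 2 in each of the 4 libraries, so only the values above that are described here. In SAT late exercise replicate 6 the median member had an excess of 4.11, a 17.2-fold difference, with quartiles of 3.35 and 5.31 and a highest value of 11.49. In SAT late exercise replicate 4 the median was 3.61, or 12.2-fold, with quartiles of 2.89 and 4.62. The median was 3.32 in VAT early exercise replicate 3 and 2.94, or 7.70-fold, in VAT early control replicate 5. An excess over 4 was reached by 201 and 145 members in SAT replicates 6 and 4, and by 114 and 84 members in the VAT exercise and control libraries. By the same rule every member had at least 1 count in each of the 4 libraries; 270 to 351 members had a count in any other SAT library and 312 to 343 in any other VAT library.

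In the other 22 libraries most members sat at low levels. The median member had 0.657 CPM in VAT (range 0 to 66.1) and 0.973 CPM in SAT (range 0 to 99.8). Under 0.5 CPM lay 168 members in VAT and 135 in SAT, and at 5 CPM or more lay 58 in VAT and 74 in SAT. In the 4 libraries the median member had 27.9 CPM in SAT late exercise replicate 4, 41.3 CPM in SAT late exercise replicate 6, 16.0 CPM in VAT early exercise replicate 3 and 12.5 CPM in VAT early control replicate 5. Gene lengths were not used, so these CPM values compare a gene with itself across libraries and not one gene with another per length.

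The threshold cut through a continuum. The 3 members just inside it had lowest excesses of 2.003, 2.010 and 2.018, and the 3 genes just outside had 1.990, 1.998 and 1.999. One gene just inside had 42.4 and 60.3 CPM in the SAT pair and 30.6 and 22.3 CPM in the VAT pair, against medians of 9.74 CPM in the other SAT and 5.20 CPM in the other VAT libraries. One gene just outside had 78.9 and 112 CPM in the SAT pair and 63.5 and 46.0 CPM in the VAT pair, against medians of 18.9 and 11.2 CPM in the other SAT and VAT libraries. A lowest excess between 1.5 and 2 was found for 196 genes, between 2 and 2.5 for 121 members, and over 4 for 78 members.

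The SAT pair alone passed the rule for 1051 genes and the VAT pair alone for 408. The 374 members made up 91.7% of the VAT list and 35.6% of the SAT list, which left 34 genes raised in the VAT pair only and 677 raised in the SAT pair only. Some genes outside the overlap were also raised in the other depot, and failed the rule in at least 1 of its 2 libraries. Of the 34 VAT genes, 21 (61.8%) in SAT replicate 4 and 22 (64.7%) in SAT replicate 6 had an excess over 1, against 11.5% and 13.9% of all genes in these libraries, with medians of 1.13 and 1.71. An excess over 2 was reached by 1 of them in SAT replicate 4 and by 13 in SAT replicate 6. Of the 677 SAT genes, 287 (42.4%) in the VAT exercise library and 231 (34.1%) in the VAT control library had an excess over 1, against 7.09% and 5.95% of all genes, with medians of 0.69 and 0.52. An excess over 2 was reached by 124 and 11 of them in the same libraries.

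**Figure D2:**
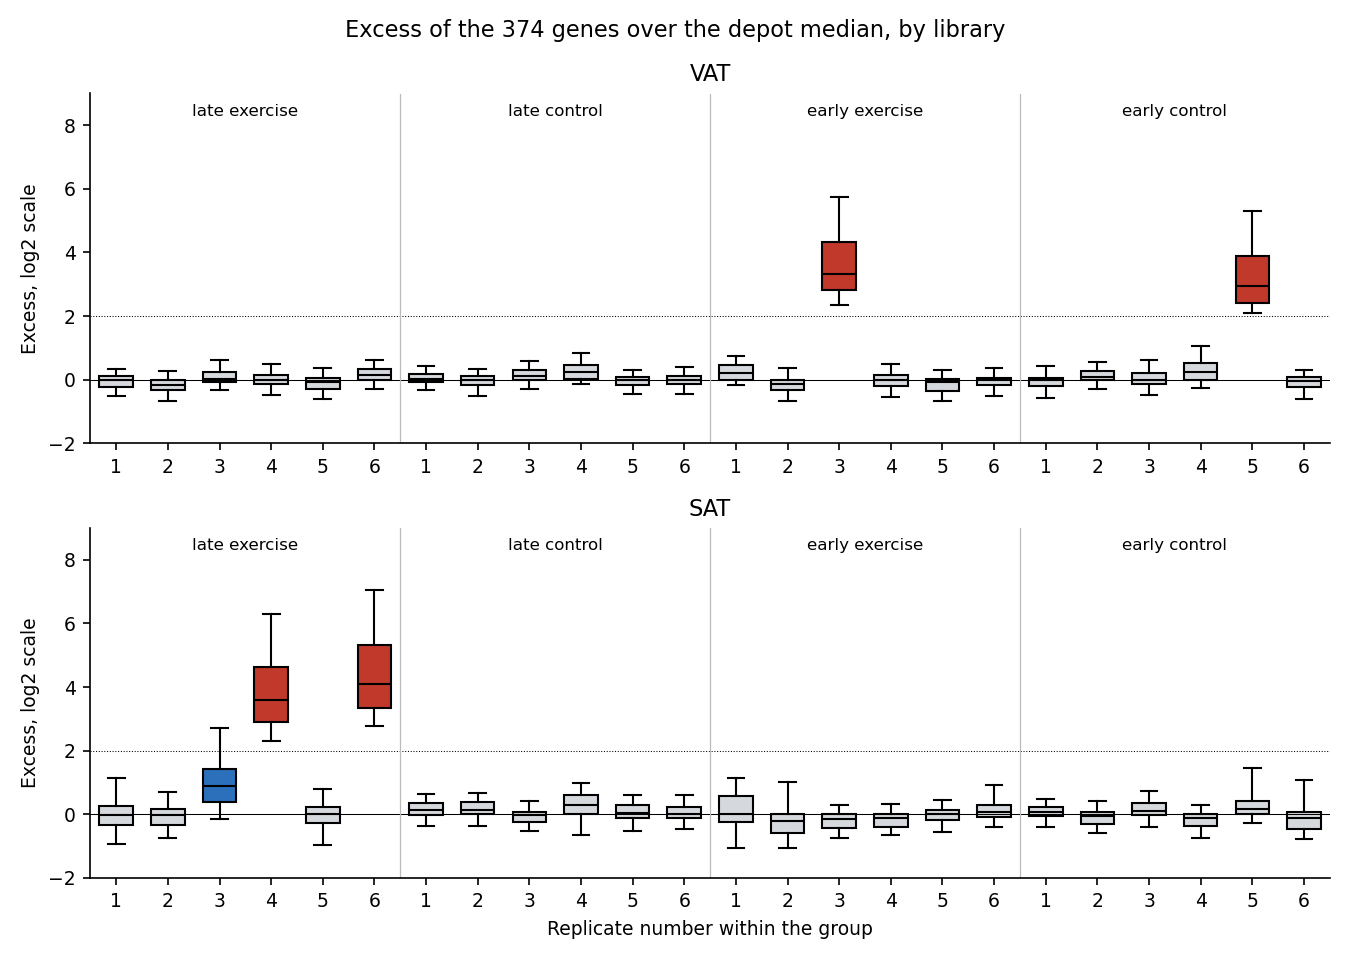
Excess of the 374 genes over the depot's usual level in every library (vertical axis, log2 units), with VAT above SAT; boxes give the median and quartiles over members, whiskers run from the 5th to the 95th percentile, and the dotted line the rule's threshold of 2. The 4 libraries of the rule have medians of 2.94 to 4.11, SAT late exercise replicate 3 has a median of 0.89, and the other libraries have medians from -0.21 to 0.29.

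Most members kept nearly the same proportions in the 4 libraries. The gain of a gene is its CPM minus the median of the depot's other 22 libraries. Between VAT early exercise replicate 3 and VAT early control replicate 5 the median ratio of gains was 1.31 (quartiles 1.17 and 1.48), and 350 of the 374 members (93.6%) lay within 2-fold of it. Between SAT late exercise replicates 4 and 6 the median ratio was 0.700 (quartiles 0.597 and 0.814), with 347 members (92.8%) within 2-fold of it. Across depots the proportions held almost as closely for most members. The median ratio of SAT replicate 4 to the VAT exercise library was 1.53, with 334 members (89.3%) within 2-fold, and that of SAT replicate 4 to the VAT control library was 2.04, with 335 (89.6%) within 2-fold. For SAT replicate 6 the corresponding ratios were 2.31, with 324 members (86.6%) within 2-fold, and 2.99, with 332 (88.8%). Beyond 4-fold from the median ratio lay 9 members between the VAT libraries, 12 between the SAT libraries and 9 to 18 across depots. Among the last, a member gained 284 and 230 CPM in SAT replicates 4 and 6. Its gain was 7.79 and 5.24 CPM in the VAT exercise and control libraries. Pearson's r of the log2 gains across the 374 genes was 0.939 between the VAT libraries, 0.915 between the SAT libraries and 0.869 to 0.899 across depots. These are correlations across genes chosen to be high in the same 4 libraries, and genes are not independent replicates.

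The size of the gain was ordered alike for most members. It was highest in SAT late exercise replicate 6 for 331 members (88.5%) and lowest in VAT early control replicate 5 for 339 (90.6%). The full order of SAT replicate 6, SAT replicate 4, the VAT exercise library and the VAT control library, from high to low, was seen for 280 members (74.9%). The median ratios of gains above already give this order for a typical member. The gains come from the libraries that the rule used, so these counts describe the set and test nothing.

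**Figure D3:**
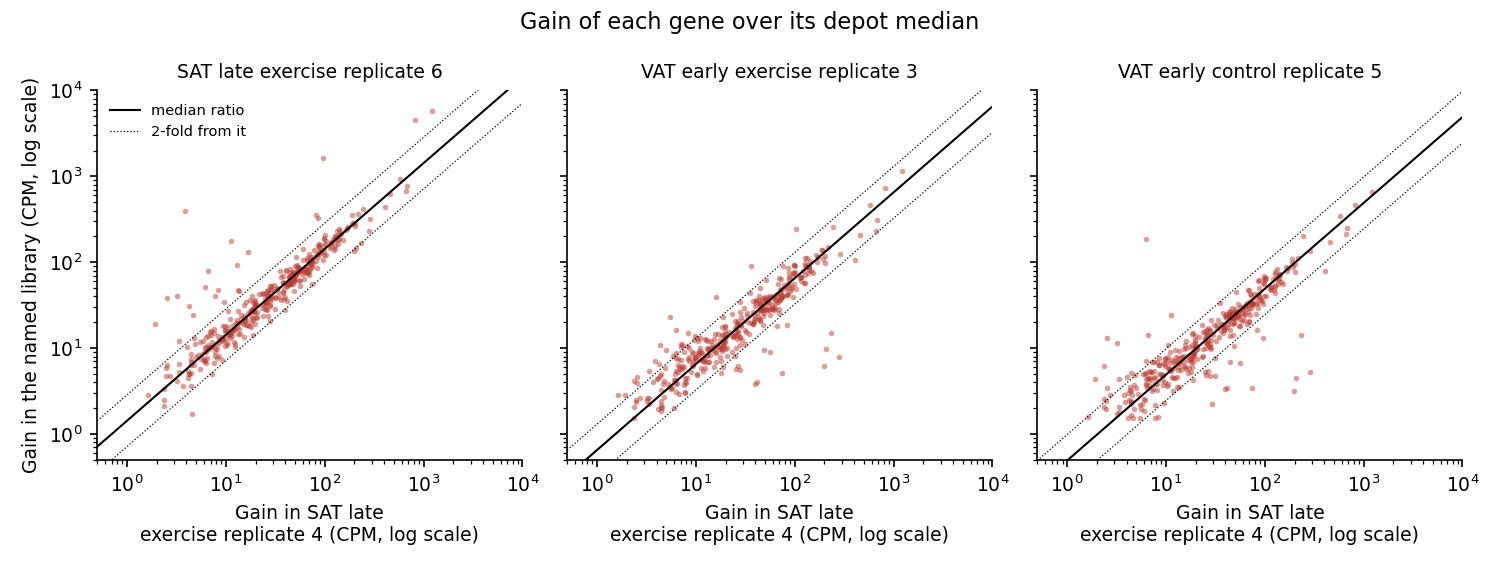
Gain of each of the 374 genes (CPM above the median of the depot's other 22 libraries, log scales) in SAT late exercise replicate 6, VAT early exercise replicate 3 and VAT early control replicate 5 against its gain in SAT late exercise replicate 4; each point is 1 gene, the solid line is the median ratio and dotted lines lie 2-fold from it. Between 334 and 347 of the genes lie within the dotted lines of a panel.

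SAT late exercise replicate 6 departed from the shared proportions in some members, abundant and less abundant ones. Its top 2 members held 25% of the summed CPM of the set, against 9.09% in SAT late exercise replicate 4, 13.2% in VAT early exercise replicate 3 and 10.5% in VAT early control replicate 5. Its top 10 held 39.9%, against 26.1%, 28.3% and 26.8% in the same 3 libraries. For 12 members the gain ratio of SAT replicate 6 to SAT replicate 4 was more than 4-fold above the median ratio, and for 0 it was as far below. The most extreme of these had 397 CPM in SAT replicate 6, against 3.87 CPM in SAT replicate 4, 7.17 CPM in the VAT exercise library and 2.40 CPM in the VAT control library. Another had 1655 CPM there, against 96.7, 76.0 and 13.3 CPM in the same 3 libraries. A less abundant member of the 12 gained 19.2 CPM in SAT replicate 6 and 1.93 CPM in SAT replicate 4. Departures were not confined to SAT replicate 6. In the VAT control library a member gained 188 CPM, against 6.22 and 51.8 CPM in SAT replicates 4 and 6 and 16.1 CPM in the VAT exercise library.

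A pair of IDs was followed as examples of genes that rose in the 4 libraries, and their names and roles are not given here. ENSRNOG00000034164 had the largest mean excess of the set, 8.34 and 9.10 in SAT replicates 4 and 6 and 8.71 and 8.36 in the VAT exercise and control libraries. Its level was 245 CPM in SAT replicate 4, 415 CPM in SAT replicate 6, 258 CPM in VAT early exercise replicate 3 and 203 CPM in VAT early control replicate 5, from 4057, 6496, 4204 and 3292 counts. In the other 22 libraries of a depot it lay between 0 and 1.06 CPM in VAT (median 0.118 CPM) and between 0 and 44.1 CPM in SAT (median 0.256 CPM). The 44.1 CPM belonged to SAT late exercise replicate 3, and the next highest library of that group had 1.33 CPM. The gene was close to or below the level of 3 counts in most libraries outside the 4, and it did not pass the filter on low counts in the tests below.

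ENSRNOG00000034190 had the highest mean level of the set. It reached 5727 CPM in SAT replicate 6, 1240 CPM in SAT replicate 4, 1166 CPM in the VAT exercise library and 656 CPM in the VAT control library. The other libraries held 3.30 to 12.3 CPM in VAT (median 6.57 CPM) and 4.42 to 80.9 CPM in SAT (median 12.0 CPM). All 4 values lay above every other library of either depot, and SAT late exercise replicate 3 was again the highest of the rest, at 80.9 CPM against at most 21.9 CPM in the other SAT late exercise libraries.

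SAT late exercise replicate 3 was not among the 4 libraries, and it carried a weaker form of the same excess. Its members summed to 3051 CPM, the highest of the other 22 SAT libraries, where the next was 2349 CPM in SAT late control replicate 4. Its median excess was 0.89 (quartiles 0.37 and 1.42), 328 members lay above the depot's usual level and 30 below it. An excess over 1 was reached by 165 of the 374 members (44.1%), against 2.66% of all 23481 genes. An excess over 2 was reached by 49 members (13.1%), against 0.443% of all genes. Its summed gain, 1489 CPM, was 7.07% of that of SAT replicate 4 and 3.76% of that of SAT replicate 6.

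The members that stood highest in the SAT pair also stood highest in this library. Among the 39 members with a mean excess over 6 in the SAT pair, the median excess in SAT late exercise replicate 3 was 2.47, and 25 exceeded 2. Among the 140 members with 4 to 6 in the pair the median was 1.13, and 23 exceeded 2. Among the 115 with 3 to 4 it was 0.66, and among the 80 with 2 to 3 it was 0.46. Across the 374 genes Pearson's r between the 2 measures was 0.595 and Spearman's rho 0.531; both measures subtract nearly the same SAT median, and genes are not replicates. SAT late exercise replicate 2 gave nearly the same correlation, r 0.505 and rho 0.456, with a median excess of -0.01 and 3 members over 2, so the correlation was not a trait of replicate 3 alone.

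**Figure D4:**
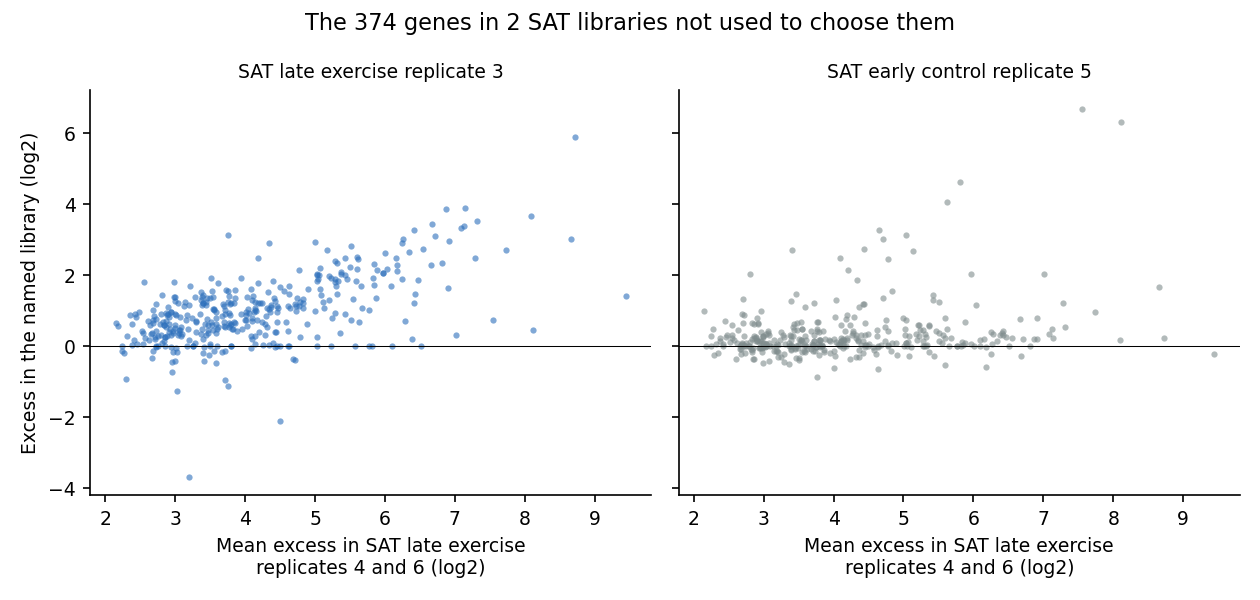
Excess of each of the 374 genes in SAT late exercise replicate 3 (left) and in SAT early control replicate 5 (right; vertical axes, log2 units) against its mean excess in SAT late exercise replicates 4 and 6 (horizontal axes, log2 units); each point is 1 gene. On the left, members above 6 on the horizontal axis have a median of 2.47 and members between 2 and 3 a median of 0.46; on the right most points lie near 0, with a median of 0.16.

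The 677 genes raised in the SAT pair only had a smaller excess there. In SAT late exercise replicate 3 their median excess was 0.00, and 46 (6.79%) exceeded 1, which is above the 2.66% of all genes and below the 44.1% of members. In several SAT libraries the order of the 2 sets was the reverse. In SAT early exercise replicate 2 and SAT early control replicate 5 the 677 genes had median excesses of 1.06 and 1.42. Of them 351 (51.8%) and 415 (61.3%) were over 1, against 2.07% and 2.76% of all genes, while the 374 members had medians of -0.21 and 0.16. In SAT early control replicate 6 the medians were 1.09 and -0.13, with 353 (52.1%) of the 677 over 1, against 2.04% of all genes. The order was weaker in SAT late exercise replicate 1 (0.80 and -0.02), SAT early exercise replicate 6 (0.64 and 0.07) and SAT late control replicate 6 (0.39 and 0.02). The rule did not require a high level in these libraries, but they were part of the median that it subtracted. They were singled out after their values were seen.

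Libraries with the same group and replicate number in the other depot had medians close to that depot's usual level. The median was 0.00 in VAT late exercise replicate 4 and 0.14 in VAT late exercise replicate 6, each with 1 member over 2. It was -0.16 in SAT early exercise replicate 3, with 0 members over 2, and 0.16 in SAT early control replicate 5, with 16 members over 2. Of all 23481 genes, 41, 25, 183 and 282 were over 2 in these libraries, in the order given. The 16 members were the second highest count among the other 22 SAT libraries. The labels do not state that libraries sharing a group and number come from the same rat.

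Lowered genes were counted in the same libraries, out of all 23481 genes. An excess under -2 was found for 542 genes in SAT replicate 4, 266 in SAT replicate 6, 17 in the VAT exercise library and 19 in the VAT control library. Both SAT libraries shared 204 of these genes, both VAT libraries shared 9, and 0 were under -2 in all 4. At most 9 could have been shared by all 4, so the 0 cannot show whether a matching lowered set exists. Under -1 in all 4 were 4 genes.

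The members varied together in the remaining libraries as well. Among genes with a mean of at least 1 CPM, the median pairwise correlation over the other 22 VAT libraries was 0.339 for 159 members and 0.149 for all 12996 genes, members included. Over the other 22 SAT libraries it was 0.321 for 201 members and 0.0545 for all 13473 genes. Without SAT late exercise replicate 3 it was 0.246 for 191 members and 0.0609 for all genes. The members also spread more: the median SD of the log2 level was 0.35 in VAT and 0.51 in SAT for members, and 0.21 in VAT and 0.26 in SAT for all genes. The part of counting noise in these values was not tested.

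The study's own comparisons were fitted without the 4 libraries, since the rule had used them, with edgeR's quasi-likelihood test and Benjamini-Hochberg adjustment over all tested genes. Leaving out libraries with high members holds the members down in their groups, namely SAT late exercise, VAT early exercise and VAT early control. Comparisons with these groups are thus not free of the rule. The filter on low counts kept 217 of the 374 members in VAT and 264 in SAT, so the counts below cover only these. Late and early groups were compared first. In exercised rats, 35 of 264 members (13.3%) differed in SAT, against 12.2% of all 14505 genes. The split was uneven: 31 members were higher late, against 6.03% of all genes, and 4 were lower, against 6.13%. The median log2 fold change was 0.38 over the members and 0.00 over all genes, and the called members ranged from 0.62 to 3.92 among the higher and from -3.16 to -0.96 among the lower. This count turned on SAT late exercise replicate 3. Without it 6 of 266 members were called, 2 higher and 4 lower, and the members' median was 0.04.

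ENSRNOG00000034190 shows this dependence. In the tests it had 11.6 to 80.9 CPM in 4 SAT late exercise libraries (median 17.8 CPM), against 4.42 to 16.1 CPM in 6 SAT early exercise libraries (median 7.41 CPM), so that the groups overlapped. The log2 fold change was 1.77 ± 0.49 (SE; edgeR adjusted p = 0.0208). Without SAT late exercise replicate 3 it was 0.78 ± 0.42 with an edgeR adjusted p of 0.286.

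In exercised rats 17 of 217 members (7.83%) differed between late and early VAT, against 24.5% of all 13875 genes. Of these, 9 were higher late, by 0.23 to 1.19 on the log2 scale, against 11% of all genes, and 8 were lower, by -2.25 to -0.46, against 13.5% of all genes. In sedentary rats 12 of 217 members (5.53%) differed in VAT, 4 higher and 8 lower, against 14.9% of all genes (7.04% higher and 7.84% lower). The direction of this split did not hold: it was 9 higher and 4 lower with voom and also without VAT early control replicate 4, and 7 higher and 5 lower without VAT early control replicate 2. In SAT of sedentary rats 4 of 264 members differed, 3 higher and 1 lower, against 8.56% of all genes (4.43% higher and 4.13% lower). The 3 higher ones, whose IDs are left out, had log2 fold changes of 1.12 ± 0.20, 1.94 ± 0.41 and 0.82 ± 0.24 (SE) with edgeR adjusted p of 0.000906, 0.00416 and 0.0394. The median log2 fold change over the members was 0.03 in VAT of exercised rats, -0.06 in VAT of sedentary rats and 0.15 in SAT of sedentary rats, against 0.00 over all genes in each. The first of the 3 higher members had 30.2 to 59.0 CPM in SAT late control, against 14.1 to 22.2 CPM in SAT early control, and the groups did not overlap.

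The member that was lower in SAT of sedentary rats was ENSRNOG00000047647. This ID was followed because it had the smallest p among the lower members in SAT of exercised rats. Its result in that comparison is therefore what it was picked on, and no further support. It had 0.745 to 2.07 CPM in SAT late control (median 1.59 CPM), against 2.12 to 7.81 CPM in SAT early control (median 3.88 CPM), a log2 fold change of -1.53 ± 0.39 (SE; edgeR adjusted p = 0.0176). In exercised rats SAT late exercise libraries held 1.60, 0.731, 1.11 and 0.195 CPM, against 3.39 to 11.2 CPM in SAT early exercise (median 6.08 CPM). The groups did not overlap, and the log2 fold change was -2.80 ± 0.49 (edgeR adjusted p = 0.000693). The fall was also seen without SAT late exercise replicate 3, at -2.92 ± 0.57 (edgeR adjusted p = 0.00308). In VAT of exercised rats it had 0.194 to 0.922 CPM late, against 2.23, 3.53, 5.91, 1.93 and 0.838 CPM early, with a log2 fold change of -2.25 ± 0.46 (edgeR adjusted p = 0.000955) and groups that overlapped by 1 early library. In VAT of sedentary rats the log2 fold change was -0.90 with an edgeR adjusted p of 0.191. Its level in the 4 libraries was 14.8 and 14.4 CPM in SAT replicates 4 and 6, which belong to the late group, and 8.64 and 8.0 CPM in the VAT exercise and control libraries.

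Exercise was compared with control next. At the late phase 1 of 264 members was called in SAT, higher in exercised rats, against 2.14% of all genes (1.44% higher). This fit left out libraries with high members from the exercised group only. With all 24 SAT libraries 199 members were called, all higher, but the rule chose the members for high values there. Neither count can show whether late exercise raised the members. That member, whose ID is left out, had 17.5 CPM in SAT late exercise replicate 3 and 0.260 to 2.89 CPM in the other 3 SAT late exercise libraries, against 0.322 to 1.33 CPM in SAT late control. Its log2 fold change was 3.03 ± 0.73 (SE; edgeR adjusted p = 0.0362), and 1.01 with an adjusted p of 0.401 without SAT late exercise replicate 3. The call was also lost without SAT late control replicate 1, 2, 3 or 6, and without SAT late exercise replicate 1. The median log2 fold change was 0.22 over the members and 0.00 over all genes, and without SAT late exercise replicate 3, when 0 members were called, it was -0.18 over the members and -0.01 over all genes.

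The remaining exercise contrasts called 0 members with edgeR. At the late phase in VAT, 16 of 217 members (7.37%) had an unadjusted p under 0.05, against 14.7% of all genes. After adjustment 0% of all genes were called. The median log2 fold change was -0.10 over the members and -0.02 over all genes. At the early phase 13 members in VAT (5.99%) had an unadjusted p under 0.05, against 4.17% of all genes. In SAT 2 members (0.76%) did, against 1.94%. Again 0% of all genes were called in either depot. The members' median was -0.16 in VAT, with 54 of 217 above 0, and -0.09 in SAT, with 95 of 264 above 0. For the difference of the exercise effect between the phases, 14 members in VAT (6.45%) had an unadjusted p under 0.05, against 9.52% of all genes. In SAT 25 members (9.47%) did, against 10.1%. After adjustment 0% of genes were called in VAT and 0.0276% in SAT. The members' median was 0.05 in VAT and 0.31 in SAT, and -0.11 in SAT without SAT late exercise replicate 3. The Wald test of DESeq2 and limma's voom test also called 0 members in each of these contrasts, except for 2 members with DESeq2 in the SAT phase difference. DESeq2 gave an adjusted p for only 5 members in the late VAT contrast and for 105 in the VAT phase difference, so its 0 there covers only these.

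VAT was compared with SAT over 44 libraries, again without the 4 of the rule. The members' level was lower in VAT for 182 of 269 tested members (67.7%), against 35.2% of all 14744 genes, and higher in VAT for 6, against 30.2%. In either direction 188 members (69.9%) were called, against 65.4% of all genes. The median log2 fold change was -0.59 over the members and -0.03 over all genes. The called members ranged from -4.59 to -0.24 among the lower, with a median of -0.73, and from 0.44 to 1.47 among the higher. Without SAT late exercise replicate 3, 161 members were lower and 10 higher, with a median of -0.47. The rule did not use the difference between the depots directly, but it subtracted each depot's median over these same 44 libraries. The median ratio of gains, SAT over VAT libraries of the rule, was 1.53 to 2.99. With the smaller gains in VAT, a gene with a low VAT level passed the threshold more easily. The depot split is thus not independent of the rule, and how much of it the rule built in was not tested.

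ENSRNOG00000018669 was followed as the member that fell with the clearest test between depots. It had 4.91 to 11.9 CPM in the 22 VAT libraries (median 7.16 CPM), against 13.3 to 33.5 CPM in the 22 SAT libraries (median 16.9 CPM), with no overlap. The log2 fold change was -1.24 ± 0.08 (SE; edgeR adjusted p = 7.67e-16). The gene was picked on this result, which is therefore no further support. In the 4 libraries of the rule it had 70.4 and 47.9 CPM in the VAT exercise and control libraries, and 105 and 168 CPM in SAT replicates 4 and 6. ENSRNOG00000034190 and ENSRNOG00000047647 were lower in VAT as well, by log2 fold changes of -1.13 ± 0.20 (edgeR adjusted p = 7.68e-06) and -0.81 ± 0.23 (edgeR adjusted p = 0.00186).

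**Figure D5:**
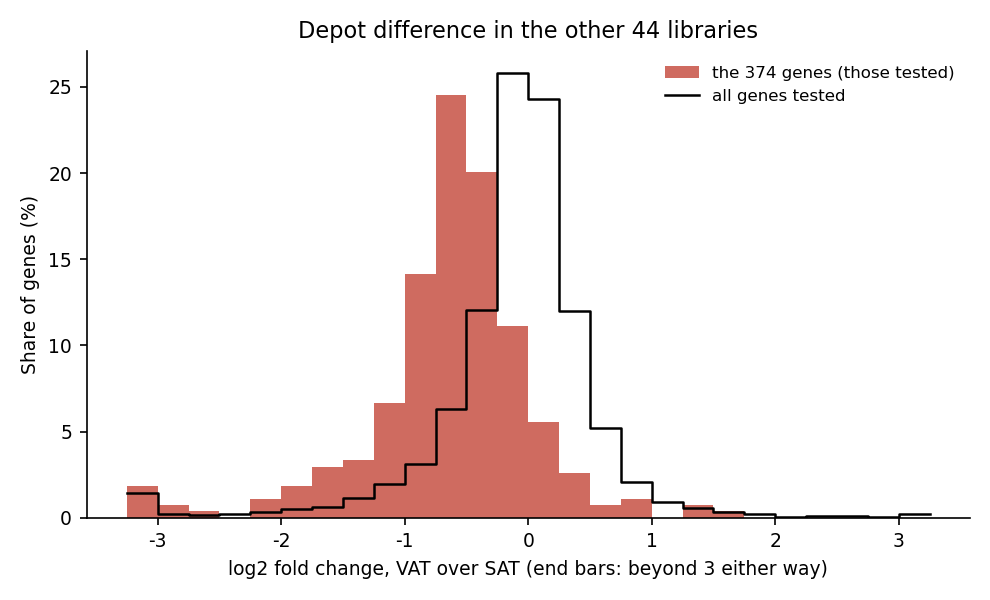
Log2 fold change between VAT and SAT without the 4 libraries of the rule (horizontal axis, log2 units; negative values mean lower in VAT) for the 269 tested members and for all 14744 tested genes (vertical axis, share of genes in percent); bars are the members, the line all genes, and the end bins hold values beyond 3. The members have a median of -0.59 and all genes a median of -0.03.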

How the data were processed

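The authors deposited 1 table of counts per Ensembl gene for 48 libraries, as whole numbers; the submitters' processing notes list Salmon 1.4.0 and rn6, and the annotation release is not given in the sources used here. Per the labels' protocols, polyA libraries, from RNA with an integrity number over 9, were sequenced as single-end reads of 50 nt. Columns were matched through the library names in the labels, 0 columns lacked a sample, and the labels give no batch. None of the 120 pairs of libraries within a group were copies: their counts differed by a chi-square of at least 8.15 per degree of freedom (genes with 10 or more counts summed over the pair).

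CPM used each column's total. Members were found as stated in the report. Tests used edgeR 4.0.16 in R 4.3.3 (TMM, filterByExpr, quasi-likelihood, adjusted p under 0.05) on group means per depot, and on depot by group means for VAT against SAT, without the 4 libraries of the rule. The procedure was tested on simulated data. The biological coefficient of variation was 15.9% in VAT and 28.9% in SAT. Alternatives were DESeq2 1.42.0, limma 3.58.1 (voom with quality weights), other size factors, no filter, all libraries, leave-one-out fits and a replicate block.

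The members, lists and tests were chosen with earlier results of these data known. The rule for named genes allowed at most 4 IDs without symbols. The choice of which 4 was settled after the table was seen: the largest mean excess, the highest mean CPM, and 2 members that were lower in a test. These 2 had the smallest p among the lower members, in the SAT exercised phase comparison and in VAT against SAT. The 29 marker lists and the promoter motifs were not analysed, since 0 IDs matched a symbol.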

Additional observations from a re-analysis of the deposited data

Results flagged for a closer look

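Within each group, with the 4 libraries of the rule left out, 7 measures were searched for a library far from the others, in 56 group tests, of which 13 stood out over 8 libraries. Chance flags about 1 in 20 such groups.

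SAT late exercise replicate 3 stood out in 4 measures. Its median excess was 0.89, against at most 0.00 in the other SAT late exercise libraries, and 49 members exceeded 2, against at most 6. It held 44.1 CPM of ENSRNOG00000034164, against at most 1.33 CPM, and 80.9 CPM of ENSRNOG00000034190, against at most 21.9 CPM. Smaller counts of members over 2 stood out in VAT late control replicate 4 and VAT early control replicate 4, each with 5 against at most 1, and in SAT late control replicate 6, with 4 against at most 1.

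VAT early control replicate 4 also held 1.06 CPM of ENSRNOG00000034164, against at most 0.122 CPM in its group, and VAT late control replicate 4 held 11.9 CPM of ENSRNOG00000018669, against at most 7.77 CPM. SAT early exercise replicate 1 held 23.0 CPM of ENSRNOG00000018669, against at most 16.9 CPM. ENSRNOG00000034190 stood at 9.69 CPM in VAT early exercise replicate 1, against at most 4.95 CPM, and at 23.9 CPM in SAT early control replicate 5, against at most 11.3 CPM. ENSRNOG00000047647 stood at 3.67 CPM in VAT early control replicate 2, against at most 1.73 CPM. The causes were not tested.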

How the results depend on the processing

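Of 308 recomputed values, 138 were counts of 0 that stayed at 0; of the other 170, 139 stayed within 1.5 times the count given in the report and 31 did not; the causes were not tested unless stated. Including the libraries of the rule, which were chosen for high members, gave 229 members in the SAT exercised phase comparison, 199 for SAT exercise at the late phase, 1 for SAT and 5 for VAT in the sedentary phase comparison, and 67 for VAT against SAT. It also turned the VAT exercised phase comparison from 9 higher and 8 lower into 0 higher and 19 lower, with 6 members shared. With DESeq2 the SAT sedentary phase comparison called 10 members, SAT exercise at the late phase 4 and the SAT phase difference of the exercise effect 2. The 4 did not include the member called in the main fit, and DESeq2 gave an adjusted p for only 151 members there. With voom the SAT exercised phase comparison called 11, the sedentary one 22, and SAT exercise at the late phase 0. Without the filter on low counts the last called 3. Leaving out 1 library gave 6 (without SAT late exercise replicate 3) to 48 in the SAT exercised phase comparison, 2 to 10 in the sedentary one, 0 (without SAT late exercise replicate 3 or SAT late control replicate 1, 2, 3 or 6) to 5 (without SAT late exercise replicate 5) for SAT exercise at the late phase, where the 1 member called without SAT late exercise replicate 1 was a different one, 11 to 20 and 8 to 13 in the VAT exercised and sedentary phase comparisons, 0 to 2 for VAT exercise at the late phase, and 171 to 199 for VAT against SAT. The set itself held 570 genes with an excess over 1.5, 167 with an excess over 3, 206 with a pseudocount of 2, 324 with TMM library sizes (50 of the 374 lost, none gained) and 375 to 498 when a library was left out of the rule. A lower threshold, or 1 library fewer in the rule, can only add genes. That the 570 and each of the last held all 374 was thus fixed in advance and tests nothing. The sets with a library left out of the rule are counted among the 139.

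Replicate numbers were not taken as pairs in the main fits. The main fit of VAT against SAT thus treated its libraries as independent, although the study took both depots from the same rats. Same-numbered libraries of a group correlated by -0.02 to 0.22 across depots, over 0.1 in 14 of 20 pairs and best with their own number in 15 of 20. Within a depot, same-numbered libraries of different groups correlated by -0.18 to 0.26 in VAT (median 0.07) and -0.39 to 0.57 in SAT (median 0.03). In each depot 11 of 30 such pairs were over 0.1. With the replicate block, 14 members were called in the SAT exercised and 5 in the sedentary phase comparison, 0 for SAT exercise at the late phase, 15 and 11 in the VAT exercised and sedentary phase comparisons, and 175 for VAT against SAT. Depth limits the 168 members under 0.5 CPM in VAT and the 135 in SAT.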
